A study of Mus musculus with 58 samples.

Results

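The chromatin sites of hnRNPU in mouse embryonic stem cells were compared with those of SAFB and SAFB2, proteins whose chromatin was prepared by the same double-crosslinking protocol. The members are all 10279 peaks of the hnRNPU chromatin immunoprecipitation sequencing (ChIP-seq) list, out of 156215 peaks in 9 lists of the series. Each peak was placed in a class by whether it shared at least 1 bp with a peak of the SAFB list (10632 peaks), of the SAFB2 list (6670 peaks), of both or of neither. The 9 lists come from a series of 58 samples built around the RNA-binding protein PSPC1, and the other 49 samples were not analysed here.

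hnRNPU, also called scaffold attachment factor A, and the scaffold attachment factor B proteins SAFB and SAFB2 were first known as components of the insoluble nuclear scaffold that bind AT-rich scaffold attachment DNA. All 3 carry a SAP domain, a short fold that contacts DNA, and further regions that bind RNA. hnRNPU is known for holding chromatin-associated RNA, including Xist RNA on the inactive X chromosome, and SAFB and SAFB2 for roles in transcriptional repression and RNA processing.

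The 3 cell lines, named FB(OE)-hnRNPU, FB(OE)-SAFB and FB(OE)-SAFB2 in the labels, each overexpress 1 tagged protein. All derive from J1 embryonic stem cells that express the bacterial biotin ligase BirA, with 129/Ola as the labelled strain, and none was treated. The tagged protein is therefore present at an overexpressed level, and whether each line is 1 clone is not stated. Per the labels' protocols, cells were crosslinked with 2 mM DSP, a reagent that links proteins to one another, and then with 1% formaldehyde. Chromatin was partly digested with 12 U/ml of DNase I and sonicated, precipitated with 5 µg of FLAG antibody and purified again on streptavidin beads. The labels give a different FLAG antibody catalogue number for each of the 3 proteins, F3165, F3166 and F3167 in the order hnRNPU, SAFB and SAFB2. For CIRH1A, UTP3 and UTP6, described below, the numbers run on as F3168, F3169 and F3170. Whether different antibodies were used was not resolved here. The only input library labelled with this protocol belongs to the SAFB line, and the control used for each list is not given in the sources used here.

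There was 1 library per protein. No difference between proteins could be tested against replicate spread, and none of the values below carries a p-value. Shares of peaks are given with Wilson 95% intervals in parentheses. These express counting error alone, because peaks of 1 library are not replicates. The read depth is unknown. The number of peaks in a list, and every share that depends on it, can move with depth and with the control. The 6 other lists, used as the background, are overexpressed CIRH1A, UTP3 and UTP6 in the BirA line, fixed with 3% formaldehyde, overexpressed PSPC1 in the same line, fixed with 1% formaldehyde, and 2 libraries of knock-in PSPC1. The knock-in cells, AID-FB(KI)-PSPC1, carry the tag on the endogenous gene, derive from CJ9 cells and were fixed with 3% formaldehyde. For none of the 6 do the labels give DSP, DNase I or a streptavidin step. CIRH1A, UTP3 and UTP6 are proteins of the machinery that processes ribosomal RNA, and PSPC1 is a paraspeckle protein.

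Most hnRNPU sites lay outside both scaffold attachment factor B lists. Of the 10279 hnRNPU peaks, 7940 overlapped neither SAFB nor SAFB2, which is 77.2% (76.4 to 78). A SAFB peak was overlapped by 1802 hnRNPU peaks, 17.5% (16.8 to 18.3), and a SAFB2 peak by 1215, 11.8% (11.2 to 12.5). By class, 1124 peaks overlapped SAFB only, 537 SAFB2 only and 678 both, the last being 6.6% (6.13 to 7.09). Taken from the other side, 16.6% (15.9 to 17.3) of SAFB peaks and 17.9% (17 to 18.8) of SAFB2 peaks overlapped an hnRNPU peak. The 2 SAFB paralogs shared far more with each other: 34.5% of SAFB peaks overlapped SAFB2 and 55.7% of SAFB2 peaks overlapped SAFB.

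The same shares were counted in the 128634 peaks of the 6 other lists pooled, where lists of unequal length weigh by their size and knock-in sites found in both libraries count each time. In that background, 11.7% of peaks overlapped SAFB, 7.79% overlapped SAFB2, 3.79% overlapped both and 84.3% overlapped neither, and 23% overlapped hnRNPU. The pooled overlaps with SAFB, with SAFB2 and with both lie below those of hnRNPU, and the share in neither lies above, but the single lists spread on both sides of hnRNPU. CIRH1A peaks overlapped SAFB in 20.2% (19.4 to 21) and UTP3 peaks in 18.7% (18.1 to 19.4), both above hnRNPU. UTP6 stood at 11.3%, overexpressed PSPC1 at 12.9% and the knock-in libraries at 6.85% and 7.39%, all below hnRNPU. For SAFB2 the order was the same around hnRNPU, with CIRH1A at 14.1% and UTP3 at 12.7% above it and the other 4 lists between 4.49% and 8.4%. The shares of hnRNPU, the only other list made with DSP, thus lay within the range of the 6 lists made without it. Of these 6, 4 come from the same BirA line. The lists differ in protein as well as in protocol, so the part of DSP in these shares cannot be told apart here.

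**Figure D1:**
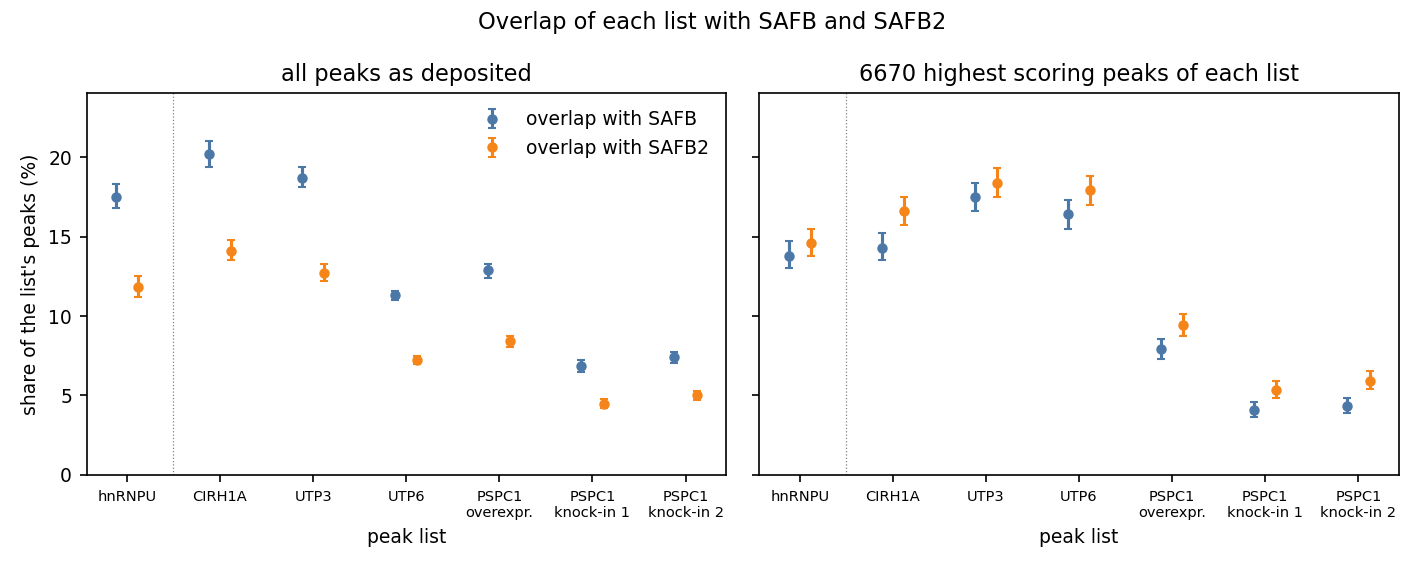
Share of each list's peaks (%, vertical axis) that overlap SAFB (blue) or SAFB2 (orange), for hnRNPU to the left of the dotted line and the 6 lists made without DSP to the right, with Wilson 95% intervals as bars. Left panel, all deposited peaks; right panel, the 6670 highest scoring peaks of every list, where hnRNPU (13.8% and 14.6%) lies below CIRH1A, UTP3 and UTP6 and above all PSPC1 lists.

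List length and peak width bear on these shares. hnRNPU peaks were narrow, with a median of 796.0 bp and a summed length of 10 Mb, against 1699 bp and 22 Mb for SAFB and 1275 bp and 10.5 Mb for SAFB2. When each list was cut to its 6670 highest scoring peaks, the hnRNPU share in SAFB was 13.8% (13 to 14.7) and that in SAFB2 14.6% (13.8 to 15.5), so that SAFB no longer had the larger share. At that number, CIRH1A peaks overlapped SAFB in 14.3% and SAFB2 in 16.6%, UTP3 peaks in 17.5% and 18.4%, and UTP6 peaks in 16.4% and 17.9%. With every peak replaced by a 500 bp window at its midpoint, which removes width, the hnRNPU shares were 9.38% in SAFB and 8.34% in SAFB2. A reciprocal overlap of 50% left 5.92% in SAFB and 5.98% in SAFB2. The larger share in SAFB than in SAFB2 was thus present with full lists and with equal windows, and absent with equal numbers of peaks or a reciprocal overlap.

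Where peaks did overlap, the hnRNPU peak usually lay within the wider one. Among 1805 overlapping hnRNPU and SAFB pairs the median shared length was 716.0 bp, the midpoints were a median of 454.0 bp apart, and 56.8% of hnRNPU peaks lay wholly inside the SAFB peak. In the 1216 pairs with SAFB2 the shared length was 730.0 bp, the midpoint distance 258.5 bp and the share inside 53%. For reference, the midpoints of the 3721 hnRNPU and CIRH1A pairs were 177.0 bp apart, between lists of nearly equal peak width. Scores of the paired peaks were weakly related, with a Spearman coefficient of 0.16 across the SAFB pairs and 0.25 across the SAFB2 pairs. These coefficients are over peak pairs of the same libraries and describe them only.

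Membership in the 2 partner lists went together. Of the hnRNPU peaks that overlapped SAFB, 37.6% (35.4 to 39.9) also overlapped SAFB2, against 6.33% (5.84 to 6.87) of those that did not. The first share is near the 34.5% (33.6 to 35.4) of all SAFB peaks that overlapped SAFB2. The contrast therefore largely restates the overlap of the SAFB and SAFB2 lists with each other. SAFB peaks shared with SAFB2 overlapped hnRNPU in 20.5% (19.2 to 21.8), and SAFB peaks without SAFB2 in 14.6% (13.8 to 15.4). For SAFB2 peaks the share in hnRNPU was nearly the same with SAFB (18.2%, 17 to 19.5) and without it (17.5%, 16.2 to 18.9). SAFB peaks that overlapped SAFB2 were thus more often hnRNPU sites, while SAFB2 peaks with and without SAFB differed little. Peak width, which bears on an overlap of 1 bp, was not held equal in these splits.

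The overlap rose with the deposited score of the hnRNPU peak. No unit is stated for this score, which served only to rank the peaks of a list. From the lowest to the highest score quartile of hnRNPU, the share in SAFB was 9.65%, 15.1%, 18.5% and 26.9%, and the share in SAFB2 was 6.34%, 8.79%, 12.4% and 19.7%. Peaks in both went from 2.88% to 13%, and peaks in neither from 86.9% (85.5 to 88.1) to 66.4% (64.6 to 68.2). Class medians of the score followed the same order, at 66.7 for peaks in neither, 76.1 for SAFB only, 79 for SAFB2 only and 92.8 for both. Even in the highest quartile, then, most hnRNPU sites were in neither list.

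**Figure D2:**
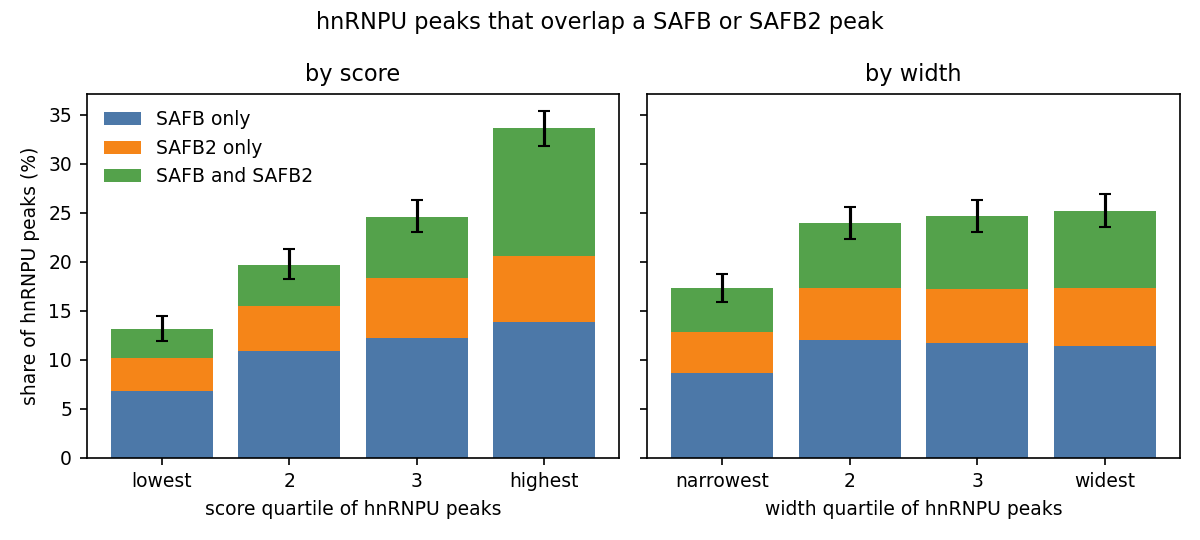
Share of hnRNPU peaks (%, vertical axis) that overlap SAFB only, SAFB2 only or both, stacked, in quartiles of hnRNPU score (left) and width (right), with the Wilson 95% interval of the whole bar. The bars climb at every step of score, and by width only the narrowest quartile stands lower.

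By width the shares moved less than by score at an overlap of 1 bp. The share in neither was 82.7% in the narrowest quartile of hnRNPU peaks and 76.1%, 75.4% and 74.9% in the next ones, and class medians ran only from 782.0 bp for neither to 874.0 bp for both. With a reciprocal overlap of 50%, which narrow peaks meet less easily against wide ones, the share in neither was 96.3% in the narrowest and 84.9% in the widest quartile, against 97.4% and 80.3% in the lowest and highest score quartile. Score and width were then crossed at 1 bp. Within the highest score quartile, 35.8%, 40%, 34.8% and 30.3% of peaks overlapped either partner from narrowest to widest. Within the lowest score quartile the corresponding shares were 11.9%, 14.5%, 15% and 12.5%. At every width the highest scoring peaks had the larger share, and the widest of the highest scoring peaks had the smallest share of their row.

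The relation with score was not mirrored from the SAFB side. SAFB peaks overlapped hnRNPU in 15.2%, 17.6%, 17% and 16.7% from the lowest to the highest SAFB score quartile, without a trend. By SAFB width the shares were 11.5%, 15.3%, 17.8% and 21.9%. SAFB2 peaks behaved otherwise, with 14.6%, 15.9%, 17.4% and 23.6% by score and 13.3%, 15.8%, 18.8% and 23.6% by width. So a strong SAFB peak was no more often an hnRNPU site than a weak one, while wide SAFB peaks were. For SAFB2 both the highest scoring and the widest quartile had the largest share. A wider peak has more bases to share at 1 bp, so the rise with width is partly built into the measure. Score and width were not crossed for SAFB or SAFB2.

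The top of the hnRNPU ranking was made of sites common to nearly all overexpression lists, a count looked at after the values were seen. The 20 highest scoring peaks, all with a score of at least 1553, were in both SAFB and SAFB2 without exception. Of the same 20, 19 were also in all 4 other overexpression lists, and 4 lay on unplaced sequence. Of the top 100 peaks, 65 were in both and 26 in neither, and 75 were in all 4 other overexpression lists. Of the top 500 peaks, 150 (30%, 26.1 to 34.2) were in both and 258 in neither. What makes these sites recur was not tested.

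Single sites show the difference between the classes. The 5 highest scoring peaks in both lists were chr9:35112694-35113291, chrX:166527074-166527607, chrUn_random:5249081-5249729, chrUn_random:5495086-5497331 and chr2:98506154-98507812 (mm9, counted from 1). At chr9:35112694-35113291 the score was 3100 in the hnRNPU, the SAFB and the SAFB2 list, the highest value in each. The site at chrX:166527074-166527607 scored 3100 for hnRNPU, 1479 for SAFB and 2095 for SAFB2, and was also in all 6 other lists. The site on chromosome 2 scored 3079, 2941 and 3093 and was in the lists of CIRH1A, UTP3, UTP6 and overexpressed PSPC1. These sites were near the top of all 3 rankings, and each was in at least 4 of the 6 other lists. Whether they are known high-signal regions of mm9, where most ChIP libraries pile up reads, was not tested, so their shared scores are not read as shared binding.

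Partner peaks at the highest scoring hnRNPU sites with 1 partner varied in rank within their own list. The leading SAFB-only peak, chr5:38414197-38414568, scored 689.7 for hnRNPU and 59.2 for SAFB, where it ranked 8119 of 10632. The next, chr2:98504952-98505478, scored 680.5 against 93.2, and it lies less than 1 kb from the shared chromosome 2 site above. The remaining named SAFB-only peaks, chr16:54867605-54868451, chr14:57429659-57431722 and chr3:103771526-103772975, scored 299.8, 274.5 and 266.0 for hnRNPU and 137.6, 67.9 and 69.2 for SAFB. The first of these ranked 1319 in the SAFB list, within its highest score quartile. The leading SAFB2-only peak, chr1:69503260-69503557, scored 877.3 against 86 for SAFB2, a rank of 1659 of 6670 and so just inside the highest quartile, and was in all 6 other lists. It was followed by chr3:6115983-6116375, chr8:19798256-19803128, chr17:53291727-53292044 and chr17:25588639-25588996, with SAFB2 scores of 75.4, 62, 63.3 and 71.9. The last of these, with an hnRNPU score of 399.3, was the only named peak with a partner that was in no list outside the 3.

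High-scoring hnRNPU peaks without a partner existed as well. The highest was chr7:89919524-89920743, at a score of 1044, found besides only in the list of overexpressed PSPC1. It was followed by chr1:56838773-56839279 (885.5, also in overexpressed PSPC1), chr2:28039601-28040236 (744.6, in all 3 PSPC1 lists), chrY:2652118-2652414 (649.9) and chr15:31643819-31644612 (644.6, also in CIRH1A). Each of the 5 was in at least 1 list made without DSP.

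The classes differed in how widely they recurred in the other lists, a readout the classes were not made from. Only 6.05% (4.49 to 8.1) of the hnRNPU peaks in both SAFB lists were in none of the 6 other lists, against 26.2% (25.3 to 27.2) of the peaks in neither. In all 4 other overexpression lists were 52.8% (49 to 56.5) of the peaks in both, 33.3% of SAFB only, 37.4% of SAFB2 only and 20.1% (19.2 to 21) of neither. For CIRH1A the shares were 69.3% of the peaks in both and 30% of those in neither, for UTP3 80.2% and 42.1%, for UTP6 91.4% and 65.7%, and for overexpressed PSPC1 69% and 48.3%. The knock-in PSPC1 libraries showed no such step, with 30.4% of both and 33.7% of neither in the first library, and 39.2% and 39.9% in the second. Compared with sites in neither list, hnRNPU sites in both were thus found more often with the other overexpressed proteins and about as often with endogenously tagged PSPC1. The knock-in lines differ from the overexpression lines in parental cells and in the level of the tagged protein. Their lists also start at a score of 30, where the overexpression lists start at 50. Their peaks had median widths of 1500 and 1419 bp, against 326.0 bp for overexpressed PSPC1 and 1002 bp for UTP6. These differences cannot be told apart here.

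**Figure D3:**
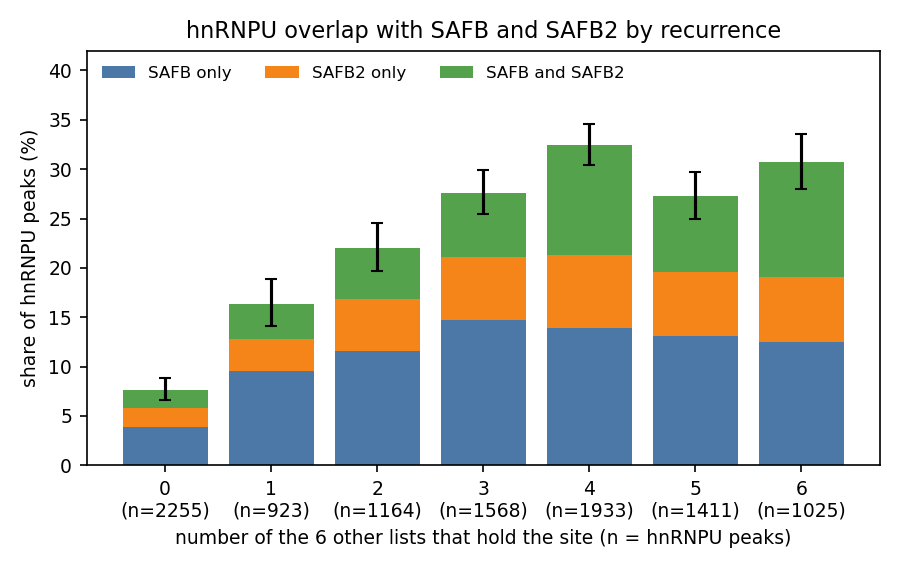
Share of hnRNPU peaks (%, vertical axis) that overlap SAFB only, SAFB2 only or both, stacked, by how many of the 6 other lists hold the site (horizontal axis, n below each bar), with the Wilson 95% interval of the whole bar. The share goes from 7.63% at sites in none of the 6 lists to 32.4% at sites in 4 and is 27.3% and 30.7% at sites in 5 and 6.

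Counted by recurrence, 2255 hnRNPU peaks were in none of the 6 other lists, and 7.63% (6.6 to 8.8) of them overlapped SAFB or SAFB2. The share was 16.4% at sites in 1 other list, 22% in 2, 27.6% in 3 and 32.4% (30.4 to 34.6) in 4. The peaks in none were also the weakest and narrowest, with a median score of 57.5 and width of 561.0 bp, against 91.3 and 1179 bp for those in all 6. Score and recurrence were therefore crossed. Among peaks in none of the 6 lists, the share in either partner was 4.51%, 7.59%, 11.7% and 20.4% by score quartile, and among peaks in 4 to 6 lists it was 22.7%, 24.7%, 28.4% and 37.3%. The step with score was present in both. Within each score quartile, peaks in 4 to 6 lists had a larger share than peaks in none. Scores still vary within a quartile, and width was not held equal, so the part of recurrence alone was not tested.

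Few hnRNPU sites were shared with SAFB or SAFB2 alone, a count limited by how few hnRNPU peaks lay outside the 6 other lists. Only 21.9% of hnRNPU peaks were in none of those lists. Of these, 7.63% overlapped either partner, against 22.8% of all hnRNPU peaks. Only 172 peaks, 1.67% (1.44 to 1.94) of the list, overlapped SAFB or SAFB2 and none of the 6 lists made without DSP, and 41 of them overlapped both. In contrast, 2083 peaks (20.3%) were in no other list at all, with a median score of 57.1, and 119 (1.16%) were in all 8. Seen from the other lists, the sites with hnRNPU were richer in SAFB. CIRH1A peaks overlapped SAFB in 27.7% (26.3 to 29.2) where hnRNPU was present and 15.6% (14.7 to 16.5) where it was not. For UTP6 the shares were 23.2% and 8.63%, and for the first knock-in PSPC1 library 16.7% and 4.66%. The same held for SAFB and SAFB2 in each of the 6 lists.

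Peaks of the neither class were mostly far from a partner peak. Their median distance to the nearest SAFB or SAFB2 peak was 54058 bp, 4.94% lay within 1 kb and 32.1% lay more than 100 kb away. Distances hardly moved with strength, at 54054 bp in the lowest and 58967 bp in the highest score quartile of hnRNPU. Widening the overlap rule to 1 kb raised the share of hnRNPU peaks at SAFB from 17.5% to 21.1%. This was just below the 22.6% of CIRH1A and the 22.9% of UTP3. It was above the 13.7% of UTP6, the 15.2% of overexpressed PSPC1 and the 7.94% and 8.54% of the knock-in libraries. Most sites of this class thus lay well away from any partner peak, but this was not particular to hnRNPU. The hnRNPU peaks without a SAFB overlap lay a median of 74162 bp from SAFB. For such peaks of CIRH1A and UTP3 the median was 72438 and 68808 bp, and for UTP6 and overexpressed PSPC1 82976 and 83065 bp. In the knock-in libraries it was 90610 and 91011 bp.

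Chromosomes differed in both density and overlap. Among chromosomes 1 to 19 and X, the share of hnRNPU peaks in either partner was highest on X, at 30.4% (25.4 to 35.9), and on chromosome 8, at 29.9% (26 to 34.1). It was lowest on chromosome 11, at 14.8% (12.2 to 17.7), and on chromosomes 9 and 19, at 15.4% and 15.7%. SAFB had 4.36 and 4.55 peaks per Mb on X and chromosome 8, and 3.3, 3.32 and 3.21 on chromosomes 11, 9 and 19. A chromosome with more SAFB peaks offers more places to overlap, so these differences are partly built into the measure. The interval of X overlapped those of several others, chromosomes 8, 13, 14 and 16 among them, so their order is not fixed by these counts. Peaks in both lists ranged from 2.67% on chromosome 11 to 10.6% on chromosome 14. Peaks on SAFB only ranged from 6.63% on chromosome 15 to 15% on chromosome 16, and those on SAFB2 only from 2.36% on chromosome 11 to 8.19% on chromosome 13. On unplaced sequence 38 of 78 hnRNPU peaks, 48.7% (37.9 to 59.6), overlapped either partner. Neither of the 2 hnRNPU peaks on Y did.

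**Figure D4:**
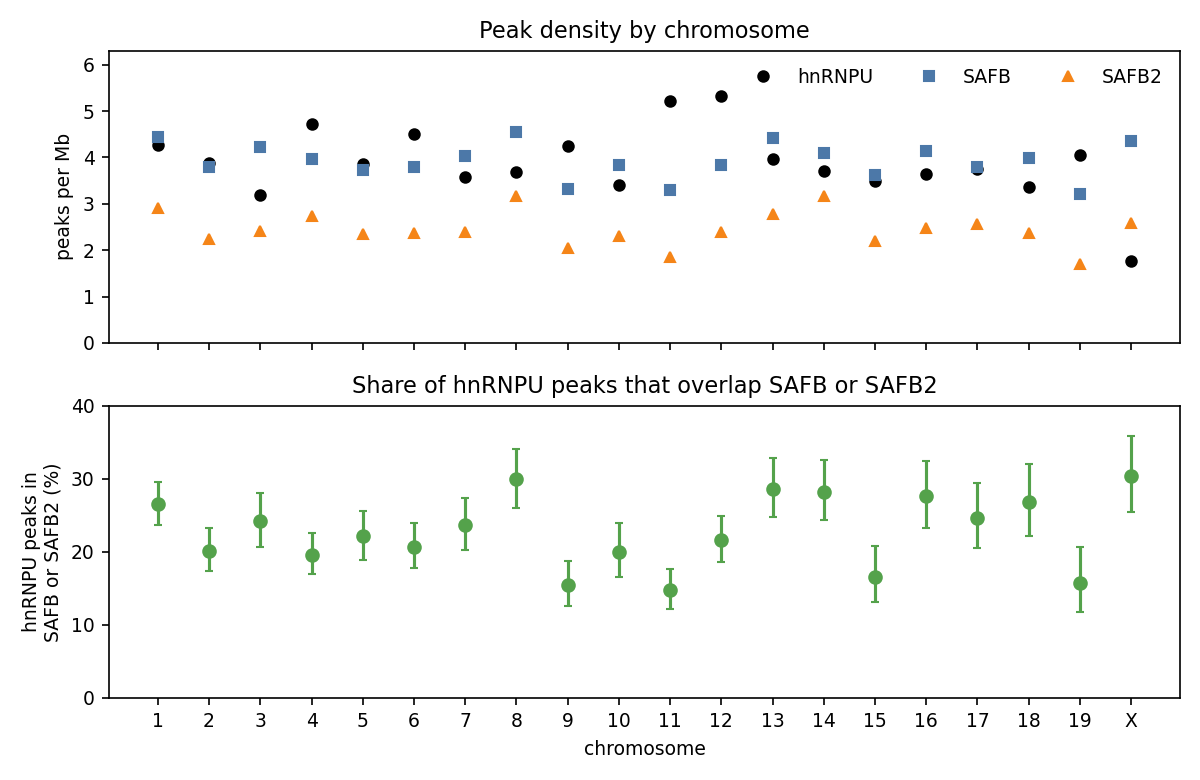
Upper panel, peaks per Mb (vertical axis) of hnRNPU, SAFB and SAFB2 on chromosomes 1 to 19 and X; lower panel, share of hnRNPU peaks (%) in SAFB or SAFB2 with Wilson 95% intervals. Chromosome 11 has a high hnRNPU density, a low SAFB density and the lowest share. X has the lowest hnRNPU density, a high SAFB density and the highest share.

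hnRNPU was sparse on the X chromosome and the SAFB proteins were not. It held 2.85% (2.55 to 3.19) of hnRNPU peaks, 6.83% (6.36 to 7.32) of SAFB peaks and 6.48% (5.91 to 7.09) of SAFB2 peaks. Per Mb, X carried 1.76 hnRNPU peaks, below the lowest autosome at 3.19, while SAFB had 4.36 and SAFB2 2.59 there, within their autosomal ranges of 3.21 to 4.55 and 1.7 to 3.17. The 6 other lists resembled hnRNPU, with 1.3% to 2.55% of their peaks on X and fewer per Mb there than on any autosome. Of the SAFB peaks on X, 9.09% overlapped hnRNPU, the lowest of these 20 chromosomes, against 23.2% on chromosome 12. With 1.76 hnRNPU peaks per Mb on X and 5.32 on chromosome 12, that difference is partly built into the measure. With 1 library each, the contrast between hnRNPU and the SAFB proteins on X has no replicate check.

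Chromosome 11 showed the opposite pattern. hnRNPU had 5.22 peaks per Mb on chromosome 11 and 5.32 on chromosome 12, its highest densities. On chromosome 11 there were 3.3 SAFB and 1.85 SAFB2 peaks per Mb, near the bottom for both. Chromosome 12 had 3.84 and 2.39, near the middle of the chromosomes, and 21.6% of its hnRNPU peaks overlapped either partner. Over the 20 chromosomes the density of hnRNPU had a Pearson coefficient of -0.42 (Spearman -0.36) with that of SAFB and -0.20 (-0.14) with that of SAFB2. Without X the coefficients were -0.34 and -0.19. SAFB and SAFB2 densities were related at 0.85 (0.87). The coefficients are descriptions over chromosomes that share the genome and its mappability, with no test.

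In 1 Mb bins hnRNPU followed the ribosome biogenesis proteins and PSPC1 more than the SAFB proteins. Over 2658 bins with a peak in any list, the number of hnRNPU peaks had a Pearson coefficient of 0.279 (Spearman 0.206) with SAFB and 0.291 (0.200) with SAFB2. With UTP3 it was 0.712 (0.735), with CIRH1A 0.698, with UTP6 0.703, with overexpressed PSPC1 0.673 and with the knock-in libraries 0.461 and 0.507. SAFB and SAFB2 stood at 0.695 (0.594) with each other. Bins share mappability, base composition and neighbours, so these values describe the lists and carry no p-value. The coefficients were thus higher between SAFB and SAFB2, and between hnRNPU and the 6 other lists, than between hnRNPU and either SAFB protein.

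The coefficients with the SAFB proteins depended on the bins and peaks used. With the 6670 highest scoring peaks of each of the 3 lists, hnRNPU had 0.134 with SAFB and 0.284 with SAFB2, and in 100 kb bins it had 0.145 and 0.155. Further settings were added after seeing the data, leaving out the 5 bins with the most peaks in the 3 lists, or unplaced sequence. Without the 5 bins, 2653 bins gave 0.195 with SAFB, 0.190 with SAFB2 and 0.681 with UTP3. Without unplaced sequence, 2583 bins gave 0.264, 0.278 and 0.706. Leaving out both gave 0.176, 0.171 and 0.674, with SAFB and SAFB2 at 0.629 to each other. In these 3 settings the coefficient of hnRNPU with either SAFB protein stayed below that with UTP3.

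The densest bins were shared unevenly. Of the 266 bins densest in hnRNPU, 50 (18.8%) were among the 266 densest in SAFB and 36 (13.5%) among those densest in SAFB2, where 10% of all bins are in the densest group of a list. With UTP6 125 (47%) were shared, with UTP3 122 and with CIRH1A 119, while SAFB and SAFB2 shared 118 (44.4%). From bins without an hnRNPU peak to bins with 10 or more, the mean number of SAFB peaks went from 2.98 to 5.25 and that of SAFB2 from 1.68 to 3.56. The mean number of UTP3 peaks went from 1.33 to 14.7. Bins without hnRNPU thus held more SAFB than UTP3 peaks on average, and the densest hnRNPU bins the reverse. These are raw counts, and the UTP3 list is the longer, with 14562 peaks against 10632 for SAFB.

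**Figure D5:**
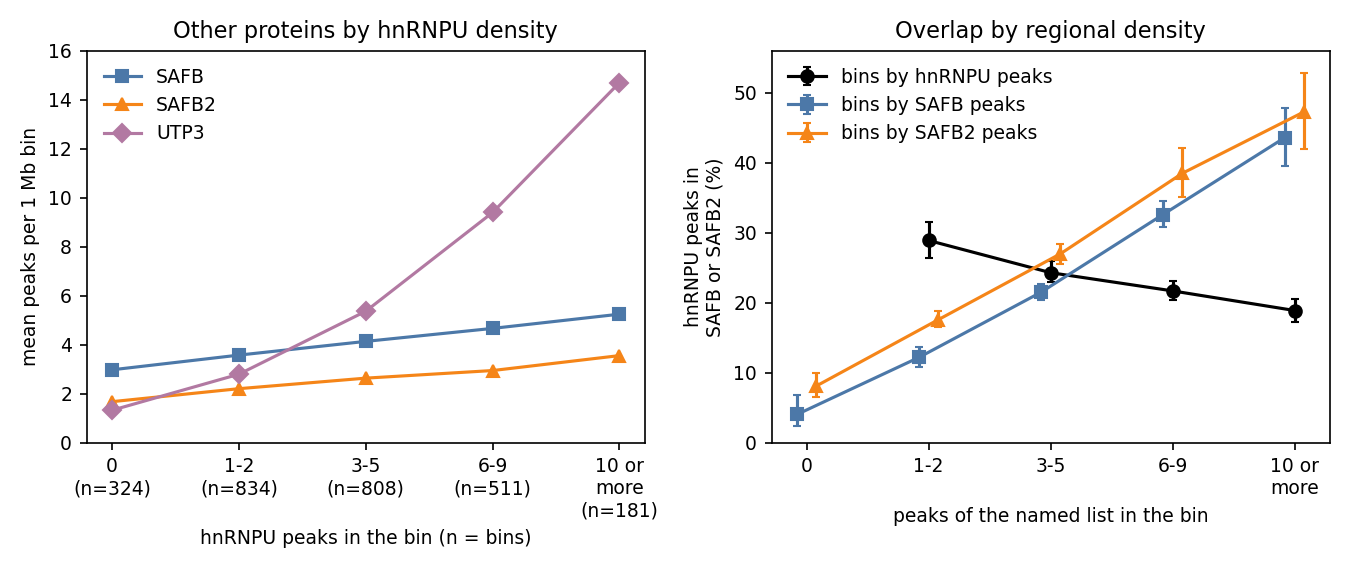
Left panel, mean peaks of SAFB, SAFB2 and UTP3 per 1 Mb bin (vertical axis) by the number of hnRNPU peaks in the bin; right panel, share of hnRNPU peaks in SAFB or SAFB2 (%, Wilson 95% intervals) by the number of hnRNPU, SAFB or SAFB2 peaks in the bin. The overlap falls from 28.9% to 18.9% with hnRNPU density and climbs from 4.05% to 43.6% with SAFB density.

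The overlap share depended on the region in opposite ways. In bins with 1 to 2 hnRNPU peaks, 28.9% (26.4 to 31.5) of them overlapped SAFB or SAFB2, and in bins with 3 to 5, 6 to 9 and 10 or more the share was 24.3%, 21.7% and 18.9% (17.3 to 20.6). By SAFB density it was 4.05% in the 128 bins without a SAFB peak and 12.2%, 21.5%, 32.6% and 43.6% (39.5 to 47.8) in the bins with more. By SAFB2 density it was 8.13%, 17.6%, 27%, 38.5% and 47.3%. A bin with more SAFB peaks offers more places to overlap, so the rise with SAFB and SAFB2 density is partly built into the measure. Across the same hnRNPU bins the mean number of hnRNPU peaks went from 1.47 to 12.5, while that of SAFB went from 3.58 to 5.25.

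Named regions give the range. The densest hnRNPU region was chr13:66000001-67000000, with 39 hnRNPU, 43 SAFB and 39 SAFB2 peaks, and 19 of the 39 hnRNPU peaks (48.7%) overlapped either partner. Beside it, chr13:65000001-66000000 held 20 hnRNPU, 32 SAFB and 32 SAFB2 peaks with an overlap of 70%. On chromosome 4, chr4:145000001-146000000 held 30, 16 and 14 peaks and chr4:146000001-147000000 held 25, 19 and 26, with overlaps of 23.3% and 44%. The region chr8:72000001-73000000 held 20, 15 and 14 peaks with an overlap of 45%. These regions were dense in the other overexpression lists too: the UTP6 list had 82 peaks in the first and 67 in the last. By contrast, chr12:4000001-5000000 held 22 hnRNPU peaks with 8 of SAFB and 3 of SAFB2, and 18.2% overlapped. Also ranked high for SAFB and SAFB2 were chr14:4000001-5000000 with 18 hnRNPU, 23 SAFB and 13 SAFB2 peaks and chr12:19000001-20000000 with 7, 19 and 14.

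Some regions held only 1 side, and those named here were chosen after their values were seen. Of the 10279 hnRNPU peaks, 131 lay in bins with no SAFB or SAFB2 peak, which were 47 of the 2334 bins with hnRNPU. Of the 128 bins without SAFB, 26.6% held no hnRNPU peak either, against 11.2% of the bins with 3 to 5 SAFB peaks. Bins with hnRNPU and neither SAFB protein were led by chr15:81000001-82000000 with 12 and chr11:83000001-84000000 with 9. Both of these were occupied in the other lists, with 35 and 23 UTP6 peaks. In the other direction, chr2:95000001-96000000 and chr17:40000001-41000000 each held 11 SAFB and 7 SAFB2 peaks without an hnRNPU peak, and chr3:71000001-72000000 held 10 and 7. Occupancy by the other proteins varied among such regions: chr3:71000001-72000000 had 2 UTP6 peaks and none of CIRH1A, UTP3 or PSPC1. By contrast chr17:21000001-22000000, with 12 SAFB and 5 SAFB2 peaks and no hnRNPU peak, held 25 UTP6, 11 overexpressed PSPC1, 8 UTP3 and 5 CIRH1A peaks.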

How the data were processed

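Each deposited list gives a chromosome, a start, an end, a name and a score per peak, 1 list per library. The authors' score has no stated unit. The names carry MACS; the caller's version, threshold, control and read filters are not given in the sources used here. The submitters' processing notes name mm9, CASAVA, Bowtie2 and TopHat, without roles or versions. Positions are printed as mm9, counted from 1.

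Peaks were compared with Python 3.11.15, numpy 2.4.6, pandas 2.3.3 and scipy 1.17.1, and plotted with matplotlib 3.10.9. Overlap meant at least 1 bp, and shares carry Wilson 95% intervals. The overlap functions were tested on simulated data. Quartiles are of score or width within a list, with ties ordered by position. Density per Mb uses the largest peak end of any list as the length of a chromosome. Bins of 1 Mb start at position 1, and those with a peak in any of the 9 lists were used.

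Regions were named by rule: the 5 highest scoring hnRNPU peaks of each class, the 5 bins with the most hnRNPU peaks and the 5 with the most SAFB plus SAFB2 peaks, and the chromosomes with the highest and lowest share. The members, lists and comparisons were chosen with earlier results of these data known. GC content, promoter overlap, gene names and sequences of the classes had been planned and were not run, because no genome or annotation of mm9 was used here.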

Additional observations from a re-analysis of the deposited data

How the results depend on the processing

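No paired analysis was possible because each protein had 1 library. Of 77 values recomputed under other settings, 24 moved by less than their 95% interval and 53 by more. For correlations the interval takes bins as independent, so it is too narrow. In each group the shares are, in order, hnRNPU in SAFB, in SAFB2, in both and in neither, SAFB in hnRNPU and SAFB2 in hnRNPU.

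A reciprocal overlap of 50% gave 5.92%, 5.98%, 2.42%, 90.5%, 5.73% and 9.22%, and a share in neither of 80.3% in the highest and 97.4% in the lowest score quartile, 84.9% in the widest and 96.3% in the narrowest. Windows of 500 bp gave 9.38%, 8.34%, 3.71%, 86%, 9.04% and 12.8%, and in the same 4 quartiles 77.3%, 93.1%, 85.9% and 89.1%. Keeping the better scoring 50% of each list gave 11.8%, 9.69%, 5.39%, 83.9%, 11.3% and 14.8%. An equal number of 6670 peaks gave 13.8%, 14.6%, 78.2% for neither, 13.6% and 14.5%, with both near its value. A distance of 1 kb gave 21.1%, 13.8%, 8.36%, 73.4%, 20.1% and 21%. A reciprocal overlap demands more shared bases and a distance of 1 kb demands none, by construction. The cause of the other shifts was not tested. Chromosomes 1 to 19, and the removal of the 5 densest bins with unplaced sequence (added after seeing the data), moved none of the 6 shares by more than its interval.

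For the bin counts, the coefficient of hnRNPU with SAFB was 0.145 in 100 kb bins, 0.206 by Spearman, 0.134 with equal numbers of peaks, 0.176 without the 5 densest bins and unplaced sequence and 0.195 without those bins alone. With SAFB2 it was 0.155 in 100 kb bins, 0.330 in 5 Mb bins, 0.200 by Spearman, 0.171 without bins and unplaced sequence and 0.190 without the bins alone. SAFB with SAFB2 gave 0.461, 0.833, 0.594, 0.661 with equal numbers, and 0.629 and 0.635 in the same order. Leaving out unplaced sequence alone moved none of the 3 by more than its interval. The cause of these shifts was not tested. Depth is unknown, and absence from a list is not absence of the protein.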
